A study of Rattus norvegicus with 6 samples.

Results

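The genes described here are 10 genes of eicosanoid synthesis and breakdown, Ptgs1, Ptgs2, Ptges, Ptgis, Hpgd, Alox5, Alox5ap, Ltc4s, Alox12 and Alox15, taken by symbol from the 33294 gene symbols counted in the pituitary gland of adult rats. All 10 had a row in the count files, and all 10 passed the filter on low counts that left 17292 genes for testing. Alox15 was chosen by its change between the groups in these same libraries, so its levels and its difference are given as a description with no test. The other 9 genes were listed with it because they belong to the same pathway.

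RNA was sequenced from the pituitary of male Sprague-Dawley offspring aged 11 weeks, 3 from dams given nicotine and 3 from control dams, with 1 library per rat. In the nicotine group the pregnant dam carried an osmotic mini-pump that released nicotine tartrate at 6 mg per kg per day, and in the control group the pump held sterile saline. The offspring themselves had no other treatment stated, and the litter of each rat is not given in the labels, so 3 rats of a group may have shared a dam. The libraries held 28318383 to 85977002 counts, with a median total 1.70 times as large in the nicotine group as in the control group. A list of read numbers that accompanies the study gives the groups' depths in the reverse order, with the control libraries deeper. With the names as given and the libraries taken in order, each nicotine library holds more counts than its listed reads. The share of reads that were counted is nearly the same in every library only if the group names are exchanged in either of these sources. Which source is right could not be settled from the files, and every direction below follows the deposited labels. The pituitary hormone genes marked the tissue, with Gh1 between 52410 and 115800 counts per 1000000 counts of the library (CPM), while 5 genes of testis germ cells summed to between 0.0369 and 0.132 CPM.

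Eicosanoids are short-lived lipid signals made from arachidonic acid that phospholipases free from membranes. Cyclooxygenases, encoded by Ptgs1 and Ptgs2, turn it into the precursor from which terminal synthases make the single prostaglandins, prostacyclin and thromboxane, and lipoxygenases turn it into leukotrienes and hydroxy fatty acids. In the pituitary, prostaglandins are known as local signals beside the hormone cells, and many of the lipoxygenase pathway genes are used mostly by blood and immune cells. Levels below are CPM, that is, counts divided by the library total after scaling with TMM factors (trimmed mean of M values, which correct for differing composition). They compare 1 gene between libraries, and they do not rank genes against each other, since gene length was not taken into account.

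None of the 9 members other than Alox15 was called different between the groups by edgeR's quasi-likelihood test (a gene counted as called when its adjusted p was below 0.1 and its level differed more than 1.5-fold), and their adjusted p-values ran from 0.806 to 0.998. The same test called 0 of 17292 genes (0%), while 1062 genes (6.14%) had an unadjusted p under 0.05. DESeq2 called 61 of the 18001 genes for which it gave an adjusted p (0.339%), and 0 of the 9 members other than Alox15. It did call Alox15, which lends no support, since that gene was chosen by this same contrast. All nicotine libraries lay below all control libraries for 1 of these 9 members, Hpgd, which was so for 5.14% of all genes tested. This was also so for Alox15, which is left out of the count because it was chosen by its change. No member had all nicotine libraries above all control libraries, which was so for 6.12% of all genes tested. For the other 8 members the groups overlapped. Of the 9 members other than Alox15, 3 had a higher and 6 a lower fitted level in the nicotine group, with a median log2 difference of -0.09 beside 0.007 over all genes tested.

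**Figure D1:**
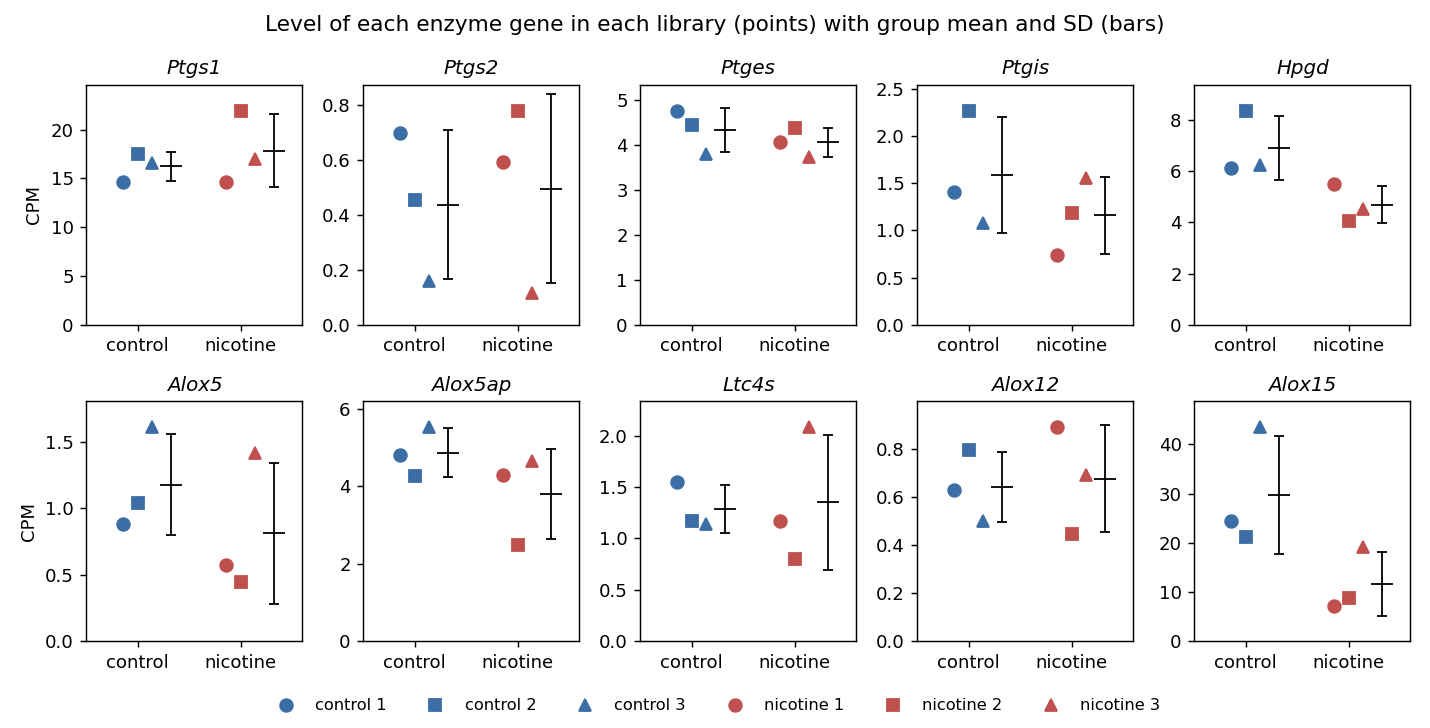
Level in CPM (vertical axis, starting at 0) of each of the 10 enzyme genes in the 3 control and 3 nicotine libraries, 1 symbol per library, with the group mean and SD as a bar. The nicotine libraries lay below the control libraries for Hpgd and for Alox15, the gene chosen by its change, and the groups overlapped for the other 8 genes.

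Ptgs1, which encodes the cyclooxygenase that most tissues make at all times, was at 14.6, 22.0 and 17.0 CPM in nicotine libraries 1, 2 and 3 and at 14.7, 17.5 and 16.6 CPM in control libraries 1, 2 and 3. Nicotine library 2 was the highest of the 6, and the other 5 lay within the range of the control group or just below it. The log2 difference of nicotine minus control was 0.14 ± 0.19 (SE, n = 3 and 3), with a 95% interval from -0.29 to 0.57 and an adjusted p of 0.899 in edgeR's test. Without nicotine library 2 the difference was -0.05.

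Ptgs2, the cyclooxygenase gene known for rapid induction, was covered by few reads, from 6 to 72 per library. Its level was 0.594, 0.781 and 0.116 CPM in nicotine libraries 1 to 3 and 0.701, 0.454 and 0.158 CPM in control libraries 1 to 3. The lowest library of each group, nicotine 3 and control 3, stood apart from the other 4, and the control range lay inside the nicotine range. The exact Poisson 95% interval, which covers counting error only, ran from 0.0465 to 0.238 CPM in nicotine library 3 and from 0.611 to 0.984 CPM in nicotine library 2. The difference between libraries of 1 group was therefore larger than counting error, and the highest level was 6.76 times the lowest. The log2 difference between the groups was 0.30 ± 0.65 (SE), with an interval from -1.14 to 1.73 and an adjusted p of 0.941 in edgeR's test. Its sign turned to -0.35 without nicotine library 2 and to -0.09 without control library 3. Among these genes Ptgs2 had the largest variation between replicates, with a biological coefficient of variation of 54.3%, against 18.3% for Ptgs1.

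The 250 bases before the start site of both cyclooxygenase genes are shown because these genes encode enzymes of the same reaction and were the steadier and the more variable of the pair. They are from RefSeq on build GRCr8, both on the plus strand, Ptgs1 at chr3:39981169-39981418 and Ptgs2 at chr13:64713813-64714062, written 5′ to 3′. Motifs were searched on both strands and are in capitals where they occur. They were the box upstream of many start sites, TATAAA, the core of the cyclic AMP response element, TGACG, the E-box, CACGTG, and the GC box, GGGCGG, of which none overlapped another.
Ptgs1: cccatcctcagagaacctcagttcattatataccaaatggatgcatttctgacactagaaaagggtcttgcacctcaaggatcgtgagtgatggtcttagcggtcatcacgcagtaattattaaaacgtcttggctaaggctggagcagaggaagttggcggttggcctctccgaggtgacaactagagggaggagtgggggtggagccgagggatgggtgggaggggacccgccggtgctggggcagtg
Ptgs2: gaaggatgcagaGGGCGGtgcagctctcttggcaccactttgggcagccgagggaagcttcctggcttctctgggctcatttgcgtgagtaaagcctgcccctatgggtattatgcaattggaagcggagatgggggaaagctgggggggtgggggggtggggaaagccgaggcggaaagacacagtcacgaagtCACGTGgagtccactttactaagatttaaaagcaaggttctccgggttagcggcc
The Ptgs1 window held none of the 4 motifs, and the Ptgs2 window held 1 GC box starting 238 bases and 1 E-box starting 55 bases before the start site. Among 27457 RefSeq windows of the same length, a GC box occurred in 32.1%, an E-box in 5.73%, the cyclic AMP element core in 18.8% and the upstream box in 13.2%. A match of letters is a description of the sequence and was not tied to any level measured here. The RefSeq table matched 7 of the 10 members. Alox15, Alox5ap and Ptgis were not matched.

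Ptges, whose product makes prostaglandin E2 from the cyclooxygenase product, had the smallest ratio of highest to lowest level of the 10 genes. It was at 4.07, 4.37 and 3.73 CPM in nicotine libraries 1 to 3 and at 4.76, 4.44 and 3.80 CPM in control libraries 1 to 3, a ratio of 1.28. The groups overlapped, with a log2 difference of -0.09 ± 0.22 (SE) and an interval from -0.59 to 0.41. Ptgis, the prostacyclin synthase gene of vessel walls, was at 0.742, 1.18 and 1.55 CPM in nicotine libraries 1 to 3 and at 1.40, 2.27 and 1.08 CPM in control libraries 1 to 3. Control library 2 was the highest and nicotine library 1 the lowest, and the rest were mixed between the groups. Its log2 difference was -0.47 ± 0.38 (SE), with an interval from -1.30 to 0.36 and an adjusted p of 0.842 in edgeR's test, and it was -0.07 without control library 2.

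Hpgd, whose product takes the first step in the inactivation of prostaglandins, was at 5.49, 4.05 and 4.54 CPM in nicotine libraries 1 to 3 and at 6.13, 8.38 and 6.26 CPM in control libraries 1 to 3. The groups did not overlap, with nicotine lower, and the nearest pair, nicotine 1 and control 1, differed by less than the SD of either group. The group means were 4.69 ± 0.735 and 6.92 ± 1.26 CPM (SD, n = 3 each). The log2 difference was -0.57 ± 0.23 (SE), with an interval from -1.09 to -0.06 and an adjusted p of 0.806 in edgeR's test and 0.690 in DESeq2, so the gene was not called by either tool. It was the single member besides Alox15 with an unadjusted p under 0.05, at 0.0313 in edgeR's test, a level that 6.14% of all genes reached. Leaving out single libraries moved its log2 difference between -0.70 and -0.41.

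Alox5 encodes the lipoxygenase that starts leukotriene synthesis. It was at 0.573, 0.445 and 1.42 CPM in nicotine libraries 1 to 3 and at 0.886, 1.04 and 1.61 CPM in control libraries 1 to 3. Nicotine 3 and control 3 were the highest libraries of their groups, nicotine 1 and 2 were below all control libraries, and the groups overlapped through nicotine 3. The log2 difference was -0.57 ± 0.47 (SE), the interval ran from -1.61 to 0.46, and the adjusted p in edgeR's test was 0.843. The log2 difference was -1.25 without nicotine library 3, -0.22 without nicotine library 2 and -0.29 without control library 3. A transfer RNA gene lies within Alox5 in RefSeq.

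Alox5ap encodes the membrane protein that presents arachidonic acid to the Alox5 enzyme. It was at 4.28, 2.47 and 4.64 CPM in nicotine libraries 1 to 3 and at 4.80, 4.27 and 5.52 CPM in control libraries 1 to 3. Nicotine library 2 was the lowest of the 6, as it was for Alox5, and control library 3 was the highest for both genes. The groups overlapped, and the log2 difference was -0.37 ± 0.28 (SE), with an interval from -0.98 to 0.25 and an adjusted p of 0.841 in edgeR's test. Macrophages are known to use both genes, and the 12 macrophage marker genes summed to between 175 and 372 CPM across the nicotine group and between 307 and 395 CPM across the control group. The part of macrophages in these levels was not tested, and in whole glands fewer cells of a type and less RNA per cell cannot be told apart.

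Ltc4s, which joins glutathione to the Alox5 product to make cysteinyl leukotrienes, was at 1.17, 0.803 and 2.08 CPM in nicotine libraries 1 to 3 and at 1.55, 1.17 and 1.14 CPM in control libraries 1 to 3. The nicotine libraries spanned a wider range that held the whole control group, and the log2 difference was 0.07 ± 0.39 (SE), with an interval from -0.80 to 0.94. It was -0.40 without nicotine library 3. Ltc4s overlaps Mgat4b at an end in RefSeq, and the strand setting of the counting is not given in the sources used here, so some reads of these 2 genes may not be told apart. Mgat4b, named after its values were seen, was at 33.8 to 47.0 CPM.

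Alox12, the platelet-type lipoxygenase gene, was at 0.891, 0.445 and 0.694 CPM in nicotine libraries 1 to 3 and at 0.627, 0.794 and 0.502 CPM in control libraries 1 to 3. Nicotine library 1 was the highest and nicotine library 2 the lowest, so the control group lay inside the nicotine range. The log2 difference was -0.01 ± 0.40 (SE), with an interval from -0.88 to 0.87, and its sign depended on the settings. The 8 platelet marker genes summed to between 13.6 and 35.04 CPM across the nicotine group and between 16.9 and 21.6 CPM across the control group, and Gp1bb had 0 counts in every library.

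**Figure D2:**
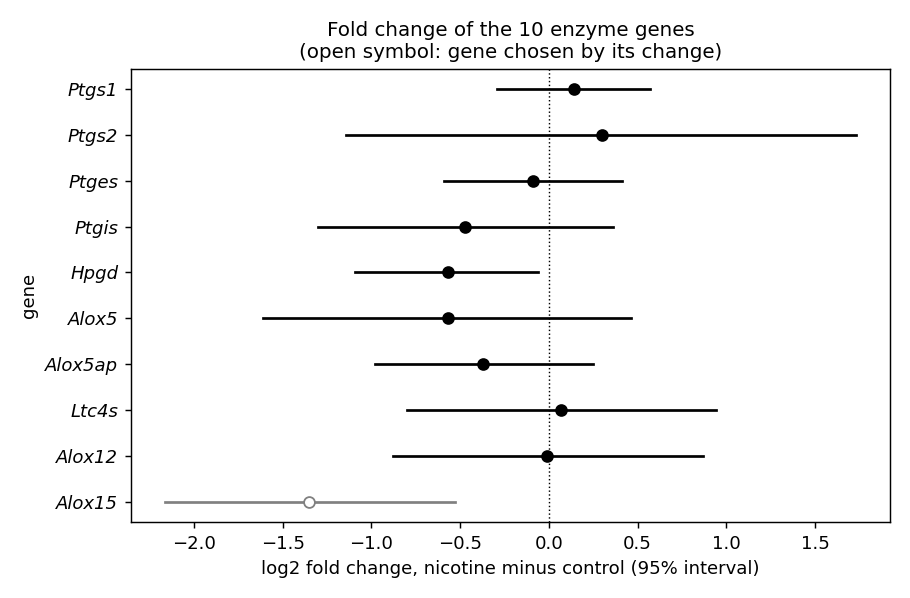
Log2 fold change of nicotine minus control for the 10 enzyme genes, with 95% intervals from edgeR's fit. The interval of Hpgd, from -1.09 to -0.06, was the only 1 of the 9 tested members that did not reach 0, and the open symbol marks Alox15, which was chosen by its change.

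Alox15, a lipoxygenase gene known from eosinophils, some macrophages and reticulocytes, was at 7.17, 8.75 and 19.1 CPM in nicotine libraries 1 to 3. In control libraries 1 to 3 it was at 24.5, 21.2 and 43.5 CPM. Nicotine libraries 1 and 2 were the lowest, control library 3 was the highest, and nicotine library 3 lay just under control library 2, so that the groups did not overlap. The group means were 11.7 ± 6.49 and 29.7 ± 12.03 CPM (SD, n = 3 each), a fitted level 2.54 times as high in the control group. The log2 difference was -1.35 ± 0.37 (SE), and it ranged from -1.90 without nicotine library 3 to -0.97 without control library 3. In raw counts the gene had 338, 806 and 1157 reads in nicotine libraries 1 to 3 and 664, 1119 and 1646 in control libraries 1 to 3, so counting error was small beside the spread between rats. Its biological coefficient of variation was 31.8%, against a trend of 19.2% for genes of like level. Alox15 lies between Alox12e and Pelp1 in RefSeq, and Alox12e was at 0.0165 to 0.113 CPM.

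The level of Alox15 moved with that of red cell genes. Alas2, the enzyme of haem synthesis that red cell precursors use, was at 48.1, 37.7 and 120.5 CPM in nicotine libraries 1 to 3 and at 129.3, 146.8 and 197.3 CPM in control libraries 1 to 3. Hbb, a beta globin gene, was at 1684, 889.5 and 2700.0 CPM in nicotine libraries 1 to 3 and at 2405, 3055 and 4951 CPM in control libraries 1 to 3. As for Alox15, nicotine libraries 1 and 2 were the lowest for both genes and control library 3 was the highest. Slc4a1 and Ahsp, the other red cell markers, followed less closely, since Slc4a1 was highest in control library 1 and control library 2 lay within the nicotine range for both. Over the 6 libraries the Pearson correlation of log2 CPM between Alox15 and Alas2 was 0.95 (Spearman 0.89), and it was 0.92 without the 2 libraries farthest from the median of Alas2. With Hbb, Slc4a1 and Ahsp it was 0.88, 0.90 and 0.79, and that with Ahsp was 0.45 without its 2 farthest libraries. These correlations include the difference between the groups by which Alox15 was chosen. With the group means removed, they were 0.875 for Alas2, 0.749 for Hbb, 0.729 for Slc4a1 and 0.495 for Ahsp. Among 14504 other genes with a mean of at least 1 CPM, Alas2 ranked 33, Hbb 193, Slc4a1 134 and Ahsp 488 in correlation with Alox15. The ranks with the group means removed were 241, 763, 877 and 2395, in the same order, so many other genes were nearer to Alox15. These correlations rest on 6 libraries that also differ in group and depth, and they are given as a description.

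All 4 red cell marker genes, Hbb, Alas2, Slc4a1 and Ahsp, had an unadjusted p under 0.05 in edgeR's test, as had 6.14% of all genes tested. All 4 had a lower fitted level in the nicotine group, with a median log2 difference of -1.14. Other lists also held genes that were lower at this p, 6 of 8 tested neutrophil genes (median -1.8), 5 of 7 fibroblast and meninges genes and 3 of 12 macrophage genes. Higher at this p were 4 of 7 endothelium and 3 of 6 smooth muscle genes. edgeR called none of the 4 red cell genes, with adjusted p-values from 0.760 to 0.806, and DESeq2 called Slc4a1, the anion exchanger of the red cell membrane. Their summed level ran from 939.8 to 2842 CPM in the nicotine group and from 2587 to 5193 CPM in the control group, and none of them was at 0. Per 100 counts of Alas2 the libraries held 14.9, 23.2 and 15.9 counts of Alox15 in the nicotine group and 19.0, 14.4 and 22.0 in the control group. As a share of the 4 genes' summed level, which is mostly Hbb, Alox15 was 0.411% to 0.931% in the nicotine group and 0.657% to 0.948% in the control group. The groups overlapped in both ratios. Since the red cell genes were themselves lower in the nicotine group, dividing by them makes the difference smaller whatever its cause. As a share of the fibroblast and meninges genes, also lower in the nicotine group, Alox15 overlapped too, at 1.87% to 4.39% and 2.99% to 7.65%. The part of red cells in the level of Alox15 was not tested.

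With the mean log2 CPM of the 4 red cell genes added as a covariate, a fit chosen after seeing the data, the log2 difference of Alox15 was -0.07 ± 0.38 (SE) in place of -1.35. The mean ran from 4.87 to 6.09 in the nicotine group and from 6.18 to 7.045 in the control group, so red cell content and group cannot be told apart in these 6 rats. In the fit with this covariate 379 of all 17292 genes tested had an unadjusted p under 0.05 in edgeR's test, beside 1062 without it. No other marker list was used as a covariate. The labels do not say whether the animals were perfused or how much blood remained in the glands.

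Other cell markers moved with Alox15 as well. Pomc, the precursor of corticotropin and melanotropins, was at 27320, 20400 and 46390 CPM in nicotine libraries 1 to 3 and at 45080, 36090 and 71800 CPM in control libraries 1 to 3, with a correlation of 0.92 with Alox15. Csf1r, the growth factor receptor of macrophages, correlated at 0.89, and at -0.12 without nicotine libraries 1 and 2, the farthest from its median. The macrophage markers with a mean of at least 1 CPM correlated at between 0.649 (Cx3cr1) and 0.896 (Trem2). With the group means removed, these macrophage markers correlated at between 0.44 (Cx3cr1) and 0.891 (Trem2). The 7 fibroblast and meninges genes correlated at between 0.606 (Dcn) and 0.944 (Col1a1). With the group means removed, the correlation was 0.904 for Pomc, 0.818 for Csf1r, 0.07 for Dcn and 0.844 for Col1a1. Of 14 lists of cell type markers, the summed level of 2 did not overlap between the groups. These were the eosinophil list, at 0.771 to 1.17 CPM in the nicotine group and 2.23 to 5.76 CPM in the control group, and the fibroblast and meninges list, at 246.8 to 435.3 and 526.1 to 708.8 CPM. Both were lower in the nicotine group. Among all single genes tested, the nicotine libraries lay all below the control libraries for 5.14% and all above for 6.12%. Of 6 eosinophil markers the defining granule gene Epx had 0 counts in 5 of the 6 libraries and 15 in control library 3. The granule gene Prg2 overlapped between the groups and was lowest in control library 2, at 0.113 CPM, where Siglec5 made up 1.87 of the 2.23 CPM of the list. The part of any of these cells in the level of Alox15 was not tested.

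Expressed as a share of the summed level of each marker list, Alox15 was below all control libraries in all nicotine libraries for 8 lists and overlapped for 6. Because Alox15 was chosen by its change, such a separation was largely fixed beforehand. The share was also below for every list of pathway genes described further down. The split is a description and does not sort cell types. The 6 were the red cell, neutrophil, eosinophil, mast cell, fibroblast and meninges, and testis germ cell lists. Of these the eosinophil, mast cell and testis lists held few counts. The 8 included the macrophage list, where Alox15 was 3.97% to 5.13% of the sum in the nicotine group and 6.21% to 14.1% in the control group. They also included the melanotroph list, of Pomc, Pcsk2 and Pax7, where it was 0.0261% to 0.0425% and 0.0542% to 0.0602%.

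**Figure D3:**
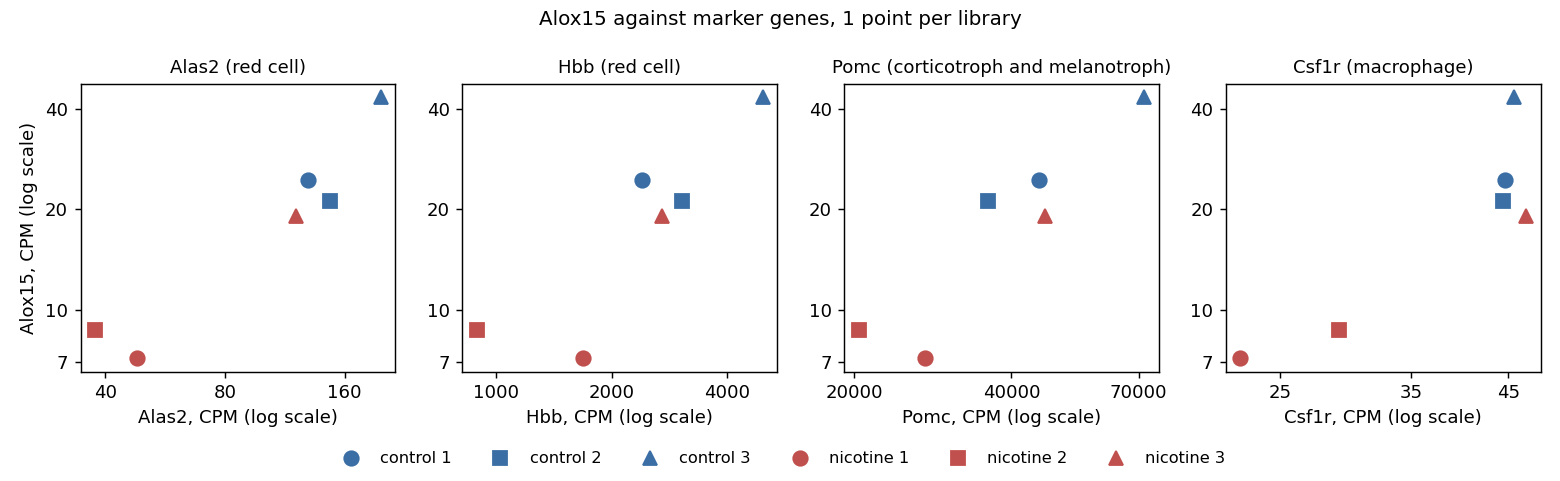
Alox15 against the red cell genes Alas2 and Hbb, Pomc and the macrophage gene Csf1r, in CPM on log axes, 1 symbol per library. Nicotine libraries 1 and 2 were lowest for Alox15, Alas2, Hbb, Pomc and Csf1r, and control library 3 was highest for Alox15, Alas2, Hbb and Pomc but not for Csf1r.

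Among 14504 other genes with a mean of at least 1 CPM, the 5 with the highest correlation with Alox15 over the 6 libraries were Slc35f2, LOC679963, Syndig1l, Arhgap30 and Kel, at 0.985 to 0.991. Kel encodes the Kell blood group protein of the red cell surface and was at 0.361 to 1.06 CPM in the nicotine group and 1.22 to 2.17 CPM in the control group. With the group means removed, the 5 nearest genes were Ccdc136, Samd14, Kcnd3, Tspan8 and Ppm1m, a different set of names, and Kel ranked 40 at 0.959. Ccdc136 had a correlation of -0.40 with Alox15 before the group means were removed, so the order of likeness depended on whether the difference between the groups was counted. Of the members, Alox5ap had a correlation of 0.70 with Alox15, Hpgd 0.50, Ptgis 0.43, Ltc4s 0.355, Ptges -0.15 and Ptgs1 -0.22. With the group means removed these were 0.53, -0.45, 0.13, 0.55, -0.79 and 0.04, in the same order. Alox5, Alox12 and Ptgs2 had means under 1 CPM and were not compared.

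The other genes of the pathway were taken as 65 genes in 7 lists by role, of which 51 passed the filter. None was called by edgeR or DESeq2, with adjusted p-values of at least 0.760 in edgeR's test and at least 0.403 in DESeq2. Of the 51 genes 32 had a higher and 19 a lower fitted level in the nicotine group, with a median log2 difference of 0.08 beside 0.007 for all genes. All nicotine libraries lay below all control libraries for 4 of them and above for 4, and 5 had an unadjusted p under 0.05, where the shares over all genes tested were 5.14%, 6.12% and 6.14%. Named after their values were seen, the 4 below were Acsl4, Tbxas1, Mgst2 and Ptger3, the 4 above were Pla2g6, Aloxe3, Ggt5 and Cyp4f4, and the 5 were Acsl4, Hpgds, Mgst2, Ggt5 and Ptger3.

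For the release of arachidonic acid, 7 of 11 tested genes were higher and 4 lower. The 3 with the most counts, a choice that takes no account of gene length, were Acsl4, which couples arachidonic acid to coenzyme A, the secreted phospholipase gene Pla2g12a, and Lpcat3, which returns arachidonic acid to phospholipids. Acsl4 was at 44.1, 37.1 and 39.4 CPM in nicotine libraries 1 to 3 and at 54.3, 44.3 and 57.0 CPM in control libraries 1 to 3. The nicotine libraries were below the control libraries, though nicotine 1 and control 2 were almost level, and the log2 difference was -0.37 ± 0.16 (SE) with an adjusted p of 0.806 in edgeR's test. Pla2g12a and Lpcat3 had log2 differences of 0.05 ± 0.18 and 0.17 ± 0.19 (SE).

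All 6 of the other prostanoid synthase genes had a lower fitted level in the nicotine group, none of them called, with a median log2 difference of -0.33. Ptges3, a co-chaperone also counted among the prostaglandin E synthases, had a mean of 297.1 CPM and a log2 difference of -0.27 ± 0.18 (SE). Ptgds, the brain-type prostaglandin D synthase abundant in meninges, was at 234.2, 58.6 and 313.9 CPM in nicotine libraries 1 to 3 and at 313.7, 262.5 and 295.4 CPM in control libraries 1 to 3. Nicotine library 2 stood far below the other 5, which overlapped. The fibroblast gene Dcn was lowest in the same library, at 100.9 CPM beside 233.1 to 429.7 CPM in the others. Ptges2, the membrane-associated synthase, had a log2 difference of -0.12 ± 0.16 (SE). Hpgds, the blood-cell type prostaglandin D synthase, named after its values were seen, had a log2 difference of -1.18 ± 0.51 (SE), an unadjusted p of 0.0409 and an adjusted p of 0.806 in edgeR's test.

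Among the other lipoxygenase and leukotriene genes, 6 of 8 tested were higher and 2 lower. Lta4h, which makes leukotriene B4, and Mgst3, a microsomal glutathione transferase, had log2 differences of 0.08 ± 0.18 and 0.15 ± 0.20 (SE). Mgst2, a relative of Ltc4s, was at 1.70, 1.72 and 2.03 CPM in nicotine libraries 1 to 3 and at 2.84, 3.10 and 3.35 CPM in control libraries 1 to 3. The groups did not overlap, and the log2 difference was -0.78 ± 0.25 (SE) with an adjusted p of 0.760 in edgeR's test. Ggt5, which converts leukotriene C4 to leukotriene D4 and is named after its values were seen, was at 1.32, 2.79 and 2.23 CPM in nicotine libraries 1 to 3 and at 1.14, 1.27 and 0.581 CPM in control libraries 1 to 3. The groups did not overlap, with nicotine above control, and the log2 difference was 1.10 ± 0.39 (SE) with an adjusted p of 0.762 in edgeR's test. The epidermal genes Alox12b, Alox12e and Alox15b did not pass the filter.

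Of the cytochrome and epoxide enzyme genes, 8 of 10 tested were higher and 2 lower, and none was called. The 3 with the most counts, Ephx1, which opens epoxides, and Cyp4f5 and Cyp4f6, of a cytochrome family known to oxidise leukotrienes and fatty acids, had log2 differences of 0.37 ± 0.21, -0.07 ± 0.17 and 0.07 ± 0.20 (SE). For transport and inactivation, 4 of 7 genes were higher and 3 lower. Ptgr2, a prostaglandin reductase, Abcc1, an exporter of leukotriene C4, and Cbr1, a carbonyl reductase, had log2 differences of -0.17 ± 0.17, 0.19 ± 0.20 and 0.07 ± 0.16 (SE). Ptgr3 was counted under its older symbol Zadh2.

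Of 9 prostanoid receptor genes 6 passed the filter, 4 of them higher and 2 lower. Ptger3, a prostaglandin E2 receptor gene, was at 3.97, 5.33 and 6.03 CPM in nicotine libraries 1 to 3 and at 7.01, 6.52 and 9.43 CPM in control libraries 1 to 3. The nicotine libraries were below the control libraries, with a log2 difference of -0.58 ± 0.24 (SE) and an adjusted p of 0.806 in edgeR's test, and the correlation with Alox15 over the 6 libraries was 0.962. Ptger2 and the thromboxane receptor gene Tbxa2r had log2 differences of 0.25 ± 0.29 and 0.16 ± 0.31 (SE). Of 7 leukotriene and lipoxin receptor genes 3 passed the filter and 2, Ltb4r2 and Oxgr1, had 0 counts in every library. The chemerin receptor gene Cmklr1, Cysltr1 and Cysltr2 had log2 differences of 0.18 ± 0.24, 0.83 ± 0.40 and 0.13 ± 0.59 (SE), none of them called.

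**Figure D4:**
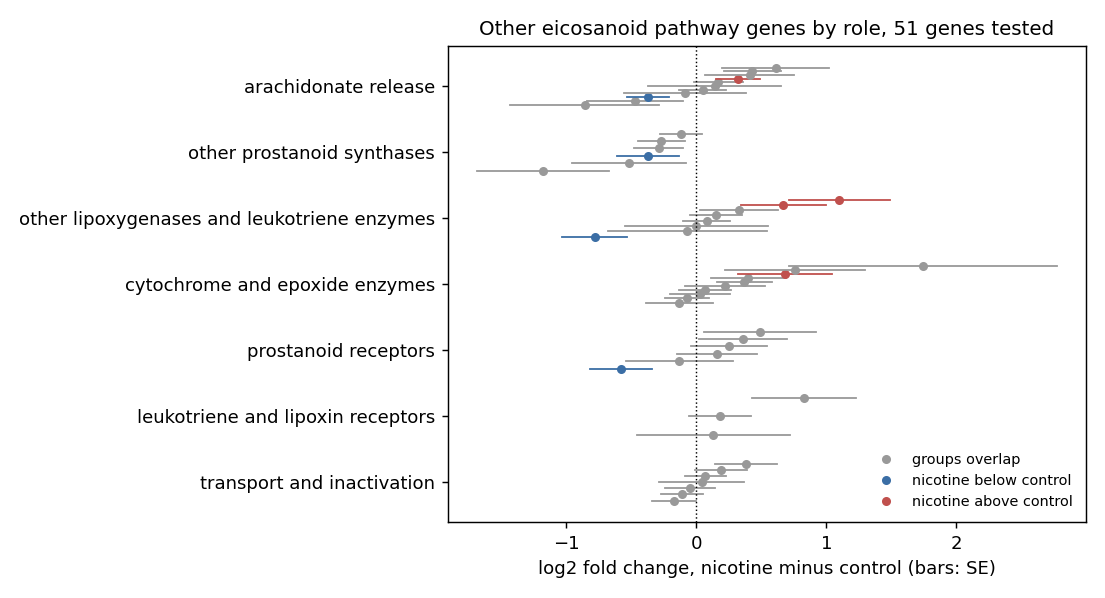
Log2 fold change of nicotine minus control with its SE for the 51 tested genes of 7 pathway lists, 1 point per gene, coloured by whether all nicotine libraries lay below or above all control libraries. There were 4 genes of each kind, and no gene of these lists was called.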

How the data were processed

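RNA from the pituitary of 3 nicotine and 3 control rats was sequenced as paired-end stranded reads. The authors mapped the reads to rn7 with HISAT2 2.1.0 and deposited whole-number counts per gene of the UCSC ncbiRefSeq annotation, made with featureCounts, 1 library per file and not normalized. The strand setting is not given in the sources used here. Counts were analysed in R 4.3.3. filterByExpr kept 17292 genes and library sizes were scaled by TMM (factors from 0.957 to 1.07). Groups were compared without a covariate by edgeR 4.0.16 (quasi-likelihood test, Benjamini-Hochberg adjustment over all genes), with DESeq2 1.42.0 as an alternative. Correlations used log2 CPM with a prior count of 2. The procedure was tested on simulated data. The members, gene lists and tests were chosen with earlier results of these data known. A marker gene of 1 list is not reported here. Named were all members, the 3 genes of each pathway list with the highest mean CPM, any called gene and the 5 genes most like Alox15 by 2 measures. The replicates are separate rats, and the labels do not say that the replicate numbers pair them. In both groups library 1 held the fewest counts and library 2 the most, and a shared batch was not tested. The deviations of same-numbered libraries from their group means correlated at 0.03, -0.20 and -0.08.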

Additional observations from a re-analysis of the deposited data

How the results depend on the processing

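With 3 rats in each group and members at a few CPM, intervals of most members spanned more than a 1.5-fold change in both directions or in 1, and lack of a call does not show equal levels. Depth limited Ptgs2 most, with 6 counts in its thinnest library. edgeR called 0 members and 0 pathway genes under every alternative. DESeq2 called 0 pathway genes and no member but Alox15, the gene chosen by this contrast. Of all genes, 0 were called at first, and the count was 61 with DESeq2, 2 with no filter, 2 with the replicate block and 1 with library sizes alone. Leaving out single libraries gave 0 to 9 genes, 9 without nicotine library 3, 4 without control library 2 and 1 without nicotine library 2. The replicate block changed no call among members, and its 2 genes were Car1 and LOC679963. With the block the log2 difference of Alox15 was -1.41 ± 0.21 (SE), beside -1.35 ± 0.37 (SE) without it. The labels do not say that the replicate numbers pair the samples. Of 129 planned member values 13 turned sign. Alox12 turned to 0.06 with DESeq2, 0.01 with no filter, 0.00 with at least 10 counts in every library, 0.22 after thinning to the smallest library and 0.04 with library sizes alone, and ranged from -0.23 to 0.24 when single libraries were left out. Leaving out libraries gave -0.05 to 0.26 for Ptgs1, -0.35 to 0.74 for Ptgs2 and -0.40 to 0.38 for Ltc4s, which was -0.01 with the replicate block. With the red cell covariate, added after seeing the data, Alox5 turned to 0.74, Alox12 to 0.05, Alox5ap to 0.30, Ptgs1 to -0.10 and Ptgs2 to -2.08, none called. The causes were not tested. All 40 group means under other scalings moved by less than 1 SD.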

Other observations

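Single libraries held extreme levels of some pathway genes, named here after their values were seen. Ephx2, the soluble epoxide hydrolase gene, was at 4.98 CPM in nicotine library 1 and at 0.211 to 0.997 CPM in the other 5 libraries, with a log2 difference of 1.74 ± 1.03 (SE) and an adjusted p of 0.826 in edgeR's test. Cysltr1, the cysteinyl leukotriene receptor gene, was at 4.71, 5.76 and 4.71 CPM in nicotine libraries 1 to 3 and at 5.06, 2.57 and 1.16 CPM in control libraries 1 to 3. Pla2g5, a secreted phospholipase gene, was at 18.8, 9.76 and 4.01 CPM in the control libraries and at 14.2, 15.4 and 19.5 CPM in the nicotine libraries. Control library 3 was the lowest for both Cysltr1 and Pla2g5, as it was for Rax and Col25a1, genes of the posterior lobe, at 0.291 and 0.924 CPM beside 2.97 to 11.2 and 3.40 to 14.2 CPM in the other 5 libraries. The other posterior lobe markers, Gfap and Aldoc, were not lowest there, at 4.70 and 105.3 CPM within ranges of 3.10 to 14.8 and 89.5 to 131.8 CPM. Whether the share of posterior lobe tissue plays a part was not tested.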
